A study of Mus musculus with 4 samples.

Results

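Transcripts of the Nodal ligand system were followed in mouse embryos with and without Ddx6, the gene of an RNA helicase with roles in mRNA decay, translational repression and silencing by microRNAs (miRNAs). The set was chosen by name from the raw count table and held 10 of its 24421 genes: the ligands Nodal, Gdf1 and Gdf3, the co-receptors Tdgf1 (also called Cripto) and Cfc1 (also called Cryptic), the antagonists Lefty1 and Lefty2, the transcription factor Foxh1, and the proprotein convertases Furin and Pcsk6 (also called PACE4). RNA sequencing was done on whole embryos of the ICR strain. Wild-type embryos gave 1 library at embryonic day 7.5 and 1 at embryonic day 8.5 (E7.5 and E8.5 wild type, marked WT in the plots), and Ddx6 -/- embryos gave 2 libraries at E8.5 (KO1 and KO2). The KO allele lacked a floxed exon removed by crossing to a CAG-Cre line, so the deletion was present throughout the embryo. According to the study's text, KO1 pooled embryos with and without a head fold and KO2 pooled only embryos that had not yet formed one. The KO libraries therefore differed in morphological stage, and genotype and developmental stage cannot be told apart in a comparison with E8.5 wild type. How many embryos made up each wild-type library was not given in the sources used here.

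NODAL is a ligand of the TGF-β superfamily. It is made as a precursor that FURIN and PCSK6 cleave, binds activin receptors together with an EGF-CFC co-receptor (TDGF1 or CFC1), and signals through SMAD2 and SMAD3 to FOXH1 on target genes. GDF1 and GDF3 form heterodimers with NODAL or act through the same receptors. Nodal itself and both Lefty genes are targets of the pathway, and LEFTY proteins block the ligand and its co-receptor, which closes a feedback loop. In the mouse embryo the pathway acts in the epiblast and primitive streak during gastrulation, and later around the node and in the left lateral plate, where left-right asymmetry is set.

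KO1 was the shallowest library, with a total count of 8198402, and E8.5 wild type the deepest, with 12562640. Ddx6 (GRCm38 chr9:44604892-44640731) had 2943 reads in E7.5 wild type, 5715 in E8.5 wild type, 706 in KO1 and 929 in KO2, which matched the genotype labels. Of the 10 genes, 8 had at least 10 counts in at least 1 library and entered the comparisons. Gdf3 and Gdf1 were under this minimum. Levels are given as counts scaled to a common library total (CPM) on normalized library sizes, and differences as log2 changes of CPM. An interval in parentheses after a log2 change or ratio of a pair of libraries is the exact Clopper-Pearson 95% interval of the reads. These intervals cover counting error only. In bulk samples, fewer cells that express a gene and less RNA per cell cannot be told apart.

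MiRNAs of the miR-302 and miR-290 clusters are abundant in early mouse embryos, and Lefty transcripts are known targets of the family. Mature miRNAs that share their seed (bases 2 to 8, in capitals) were therefore picked by name from the RefSeq table, without a search for all. They were set beside the matching stretches in the 3′ UTRs. Their sequences are those of RefSeq (GRCm38.p6).
miR-302b-3p: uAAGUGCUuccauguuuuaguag
miR-302d-3p: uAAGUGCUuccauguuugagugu
miR-291a-3p: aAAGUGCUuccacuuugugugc
miR-294-3p: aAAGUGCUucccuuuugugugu
miR-295-3p: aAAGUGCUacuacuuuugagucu
The DNA match to the 7-base seed, AGCACTT, occurred once in the 3′ UTR of Lefty1 and once in that of Lefty2, among the 3′ UTRs of all 10 genes (GENCODE, strand of the transcript). The 6-base match GCACTT occurred also in Nodal and Furin. Matched bases are in capitals.
Lefty1 (chr1:180938204-180938228, plus strand): tgtatgcgaAGCACTTacatgtata
Lefty2 (chr1:180897908-180897932, plus strand): cccagtttaAGCACTTacatgggta
Nodal (chr10:61425223-61425246, plus strand): gagaggtggGCACTTgtccaagag
Furin (chr7:80390651-80390674, minus strand): cttcctcggGCACTTtttaattca
In both Lefty genes the match was followed by an A, which makes the 8-base word AGCACTTA. Of 17923 mouse 3′ UTRs, 24.9% held the 6-base word, 12.6% the 7-base word and 2.59% the 8-base word. Among stretches as long as the Lefty1 3′ UTR (425 bases), 4.9% held the 7-base and 0.964% the 8-base word. Among stretches as long as that of Lefty2 (1290 bases), the shares were 14.9% and 2.71%. A match describes the letters in the 3′ UTR and not the use of a site. The count table held few reads of the Mir302 genes, which summed to 17 in KO2, 9 in E7.5 wild type and 1 in each of the other libraries over Mir302a to Mir302d. These small genes were looked up after the values of the set were seen, and such reads do not measure mature miRNAs.

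Genes of the set were ordered by their level per kb of transcript within each library (the plot of levels by library). Foxh1 had the highest level per kb of the set in all 4 libraries, from 64.2 CPM per kb in E8.5 wild type to 111 in KO2. Furin came second in E7.5 wild type, E8.5 wild type and KO1, while in KO2 Tdgf1 took second place with 62.9 CPM per kb. The order of the middle of the set differed between libraries. In E7.5 wild type, Lefty2 (38.9 CPM per kb) lay beside Furin (41.5), and Tdgf1 (13.1) beside Cfc1 (12.2). In both E8.5 wild type and KO1, Cfc1 came next after Furin, far above Lefty2 and Tdgf1. By counting error, 4 of 9 neighbouring pairs in E7.5 wild type, 4 of 8 in E8.5 wild type and 4 of 8 in KO1 could not be ordered, while all 8 in KO2 could. The pairs that could not be ordered included Furin and Lefty2 in E7.5 wild type (ratio 1.07, 95% interval 0.993 to 1.15) and the run of Pcsk6, Tdgf1, Nodal, Lefty1 and Lefty2 in E8.5 wild type.

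**Figure D1:**
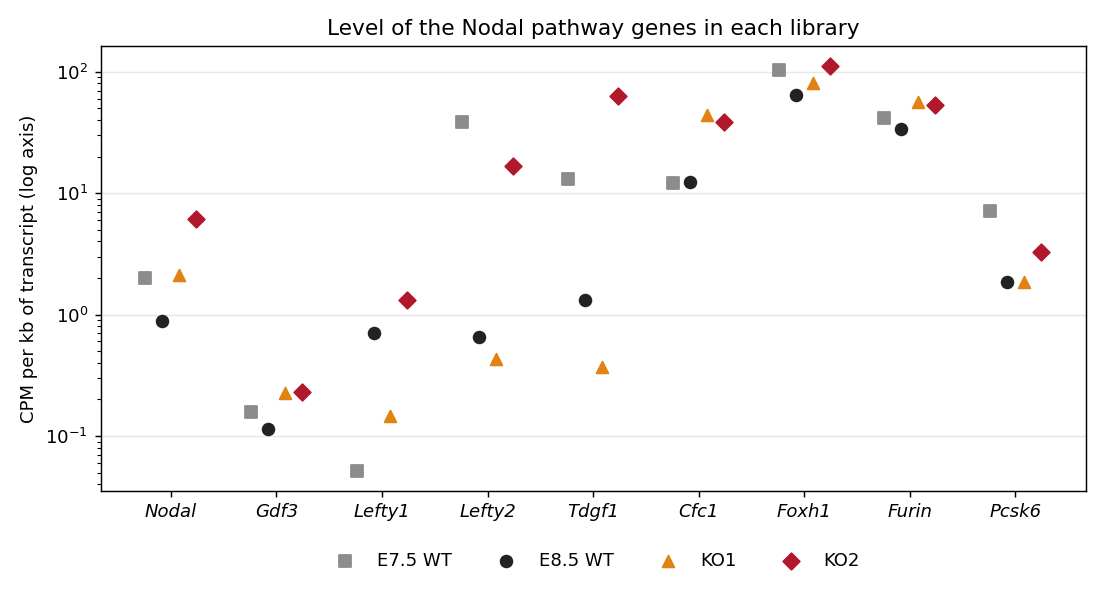
Level of 9 genes in each library, as CPM per kb of transcript on a log axis. Each point is 1 library, and Gdf1, which had 1 read in all, is left out. Foxh1 and Furin each lie within a narrow band, Cfc1 is higher in both KO libraries than in both wild types, and Lefty2 and Tdgf1 are high in E7.5 wild type and KO2 and low in E8.5 wild type and KO1.

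Nodal was low but above E8.5 wild type in both KO libraries. Nodal (chr10:61417972-61425338, plus strand, 3 exons) had 50 reads in E7.5 wild type, 23 in E8.5 wild type, 37 in KO1 and 155 in KO2, or 4.20, 1.87, 4.41 and 12.7 CPM. KO1 thus lay beside E7.5 wild type, and KO2 lay above all other libraries. Against E8.5 wild type the log2 change was 1.16 (0.45 to 2.05) in KO1 and 2.65 (2.13 to 3.46) in KO2, with a mean of 1.91 ± 1.06 (SD, n = 2). It was 0.07 (-0.59 to 0.71) in KO1 and 1.56 (1.13 to 2.09) in KO2 against E7.5 wild type. KO2 was above KO1 by 1.49 (1.0 to 2.09), and E7.5 wild type above E8.5 wild type by 1.10 (0.43 to 1.95). In the edgeR quasi-likelihood test of both KO libraries against E8.5 wild type, the p was 0.0646 before and 0.666 after adjustment.

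Of the partner ligands, Gdf3 was close to the limit of detection and Gdf1 could not be assessed. Gdf3 had between 3 and 6 reads in each library. The ratio of KO2 to E8.5 wild type (6 and 3 reads) was 2.02 with an interval of 0.431 to 12.5, so no difference was detectable at this depth. Gdf1 had 1 read in E7.5 wild type and 0 in the other libraries. In the GENCODE annotation the exons of Gdf1 lie entirely within those of Cers1 on the same strand (100% of bases), and Cers1 had 0 reads in every library. The counts were made on another annotation, which was not used here. The study lists its counting options, none of which concerns reads shared by genes, so the default of the counting tool is assumed. If both genes overlap there as well, reads from the shared stretch cannot be assigned to either, so the counts are not read as a level of Gdf1.

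The co-receptors went separate ways. Cfc1, which acts in left-right patterning, was higher in both KO libraries than in either wild-type library by similar amounts. Cfc1 (chr1:34535648-34544313, plus strand) had 151 reads in E7.5 wild type, 159 in E8.5 wild type, 383 in KO1 and 486 in KO2, or 12.7, 12.9, 45.6 and 39.9 CPM. E7.5 wild type differed from E8.5 wild type by -0.03 (-0.36 to 0.30) and KO2 from KO1 by -0.19 (-0.39 to 0.00), both within counting error. Against E8.5 wild type the log2 change was 1.80 (1.55 to 2.09) in KO1 and 1.61 (1.36 to 1.89) in KO2, with a mean of 1.71 ± 0.14 (SD, n = 2). Against E7.5 wild type the values were 1.83 (1.57 to 2.13) and 1.64 (1.39 to 1.92). Cfc1 was the sole gene of the set past a log2 change of 1 in both KO libraries against both wild-type stages, a pattern that 108 genes (0.75% of those tested) shared. In the edgeR test its unadjusted p was 0.00174 against E8.5 wild type and 0.00165 against E7.5 wild type, with adjusted p of 0.666 and 0.128. With DESeq2 the adjusted p was 0.0936 and 0.0117.

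Tdgf1, the EGF-CFC gene of the epiblast and primitive streak, differed more between the KO libraries than any other gene of the set. Tdgf1 (chr9:110939603-110946158, minus strand) had 300 reads in E7.5 wild type, 31 in E8.5 wild type, 6 in KO1 and 1480 in KO2, or 25.2, 2.52, 0.714 and 121 CPM. KO2 was thus the highest library and KO1 the lowest. The log2 change against E8.5 wild type was -1.60 (-3.37 to -0.54) in KO1 and 5.49 (5.08 to 6.15) in KO2. The mean of 1.95 ± 5.01 (SD, n = 2) had a spread larger than its size. KO2 held 170-fold more Tdgf1 than KO1 (95% interval 77.9 to 464). Of 50-base stretches of the Tdgf1 transcript, 12.5% also occur in the pseudogene Tdgf1-ps1, where the reads could not be placed uniquely.

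The makeup of the co-receptor pair followed from this (the plot of the ratios within a library). Per kb of transcript, the ratio of Tdgf1 to Cfc1 was 1.07 (95% interval 0.877 to 1.31) in E7.5 wild type, 0.105 (0.0690 to 0.155) in E8.5 wild type, 0.00843 (0.00308 to 0.0185) in KO1 and 1.64 (1.48 to 1.82) in KO2. As a share of the reads of both genes, Tdgf1 made up 66.5%, 16.3%, 1.54% and 75.3%. KO1 was thus below E8.5 wild type and KO2 above E7.5 wild type, and none of the 4 intervals overlapped.

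**Figure D2:**
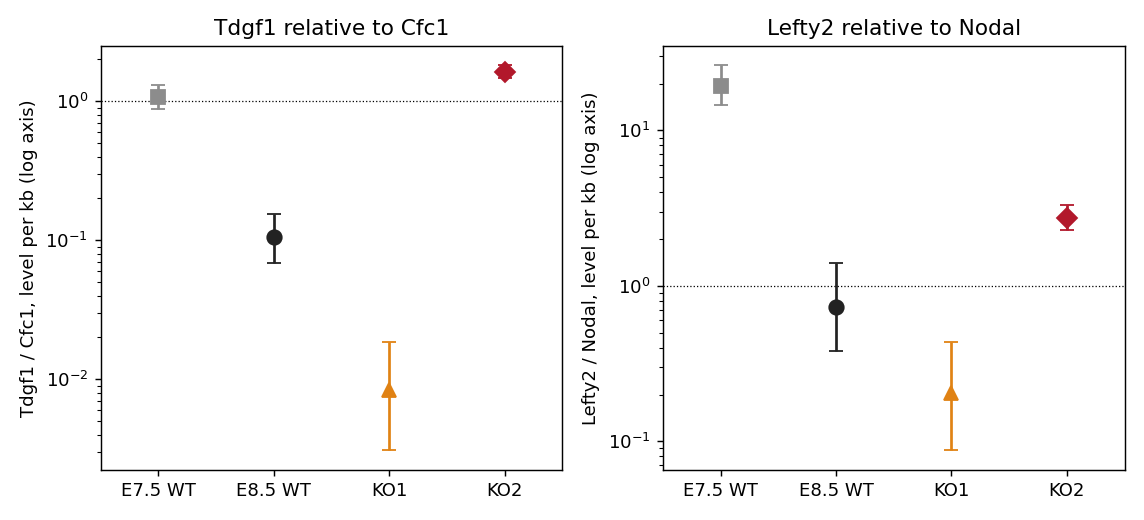
Ratio of Tdgf1 to Cfc1 (left) and of Lefty2 to Nodal (right) in each library, per kb of transcript on log axes. Points are single libraries, bars are exact 95% intervals of the reads, and the dotted line marks equal levels. In both panels E7.5 wild type and KO2 lie above E8.5 wild type, and KO1 has the lowest value.

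Lefty2, the Lefty gene of the primitive streak and nascent mesoderm, was high in E7.5 wild type and KO2 and low in E8.5 wild type and KO1. Lefty2 (chr1:180893108-180899103, plus strand) had 1144 reads in E7.5 wild type, 20 in E8.5 wild type, 9 in KO1 and 502 in KO2, or 96.2, 1.63, 1.07 and 41.2 CPM. KO2 thus lay between the wild-type stages. E7.5 wild type was 59.1-fold above E8.5 wild type (38.1 to 97.1). Against E8.5 wild type the log2 change was -0.53 (-1.92 to 0.60) in KO1 and 4.52 (4.02 to 5.39) in KO2, and the mean was 1.99 ± 3.57 (SD, n = 2). Both KO libraries were lower than E7.5 wild type, with -6.27 (-7.62 to -5.56) and -1.22 (-1.38 to -1.07).

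Lefty1, which marks the anterior visceral endoderm and later the midline, did not go with Lefty2 between the wild-type stages. It had 1 read in E7.5 wild type, 14 in E8.5 wild type, 2 in KO1 and 26 in KO2 (chr1:180935022-180938400, plus strand). Where Lefty2 was highest, in E7.5 wild type, Lefty1 had its lowest count. The ratio of E7.5 wild type to E8.5 wild type was 0.0738 (0.00175 to 0.485). KO1 stood to E8.5 wild type as 0.209 to 1 (0.0231 to 0.910), and KO2 to E8.5 wild type as 1.87 to 1 (0.943 to 3.88). Of 50-base stretches, 17.9% of the Lefty1 transcript and 11.6% of the Lefty2 transcript are identical between both genes. Reads from those stretches may be lost or split, so both counts are uncertain to that extent.

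The amount of Lefty2 relative to its ligand also differed. Per kb, the ratio of Lefty2 to Nodal was 19.4 (14.6 to 26.3) in E7.5 wild type, 0.737 (0.384 to 1.40) in E8.5 wild type, 0.206 (0.0875 to 0.435) in KO1 and 2.74 (2.29 to 3.31) in KO2. KO2 had 3.03 times the Nodal level of E7.5 wild type but 0.428 times its Lefty2 level. The intervals of E8.5 wild type and KO1 overlapped, and the others did not.

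Foxh1, the DNA-binding partner of SMAD2 and SMAD3, differed between all pairs of libraries by a log2 change under 1. Foxh1 (chr15:76668225-76669948, minus strand) had 1674 reads in E7.5 wild type, 1077 in E8.5 wild type, 923 in KO1 and 1848 in KO2, or 141, 87.6, 110 and 152 CPM. Both KO libraries were above E8.5 wild type, by 0.33 (0.20 to 0.45) and 0.79 (0.68 to 0.90) on the log2 scale, and neither passed the threshold of 1. KO1 lay between the wild-type stages and KO2 just above E7.5 wild type.

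The convertases also took separate courses. Furin, which is broadly expressed, had 2058 reads in E7.5 wild type, 1728 in E8.5 wild type, 1972 in KO1 and 2711 in KO2 (chr7:80388585-80405436, minus strand), or 173, 141, 235 and 222 CPM. Both KO libraries were above both wild-type libraries. The log2 change against E8.5 wild type was 0.74 (0.65 to 0.83) in KO1 and 0.66 (0.57 to 0.75) in KO2, with a mean of 0.70 ± 0.06 (SD, n = 2). The change from E7.5 wild type was 0.44 (0.35 to 0.53) and 0.36 (0.28 to 0.45). The difference was under the threshold, with unadjusted p of 0.00435 and 0.0277 in edgeR and adjusted p of 0.666 and 0.166.

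Pcsk6, whose product acts beside FURIN on the NODAL precursor, separated the wild-type stages instead. Pcsk6 (chr7:65861734-66050386, plus strand) had 372 reads in E7.5 wild type, 101 in E8.5 wild type, 69 in KO1 and 175 in KO2, or 31.3, 8.22, 8.22 and 14.4 CPM. E7.5 wild type was the highest library. Against E7.5 wild type the log2 change was -1.91 (-2.32 to -1.55) in KO1 and -1.11 (-1.39 to -0.86) in KO2, and against E8.5 wild type it was 0.00 (-0.46 to 0.46) and 0.79 (0.44 to 1.17). The summed level of 6 extraembryonic ectoderm markers was 313 CPM in E7.5 wild type, 157 in E8.5 wild type, 116 in KO1 and 55.1 in KO2. Within this list Cdx2 and Sox21 differed from the rest and had their highest levels in E8.5 wild type (108 and 34.8 CPM). Without them, the other 4 (Elf5, Esrrb, Tfap2c and Ascl2) came to 216, 14.1, 18.3 and 35.4 CPM. This sum was formed after the values were seen, by leaving out genes that differed. Its order therefore cannot be set against that of Pcsk6. Most of the sum of all 6 in E8.5 wild type was Cdx2 and Sox21. That sum was lowest in KO2, while the sum of the 4 was higher in KO2 than in E8.5 wild type. Among the 4, Esrrb was not higher in KO2 (2.71 CPM) than in E8.5 wild type (3.01). The part of extraembryonic ectoderm in the Pcsk6 difference was not tested. Per kb, Furin exceeded Pcsk6 by 5.85-fold in E7.5 wild type, 18.1-fold in E8.5 wild type, 30.2-fold in KO1 and 16.4-fold in KO2.

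Over the 8 genes tested, 2 (Nodal and Cfc1) exceeded E8.5 wild type in both KO libraries by a log2 change above 1, against 3.44% of all 14393 genes tested. None was lower in both, against 1.79%. Against E7.5 wild type, Cfc1 was higher in both (6.91% of all genes), and Lefty2 and Pcsk6 were lower in both (2.7% of all genes). Between the wild-type stages, Nodal, Lefty2, Tdgf1 and Pcsk6 were higher at E7.5 (7.82% of all genes) and Lefty1 was lower (12.2% of all genes). For the 8 genes the median log2 change against E8.5 wild type came to 0.16 in KO1 and 1.21 in KO2, where the medians of all genes were -0.01 and 0.00. The comparisons with E8.5 wild type share that library, and those with E7.5 wild type share the KO libraries with them.

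**Figure D3:**
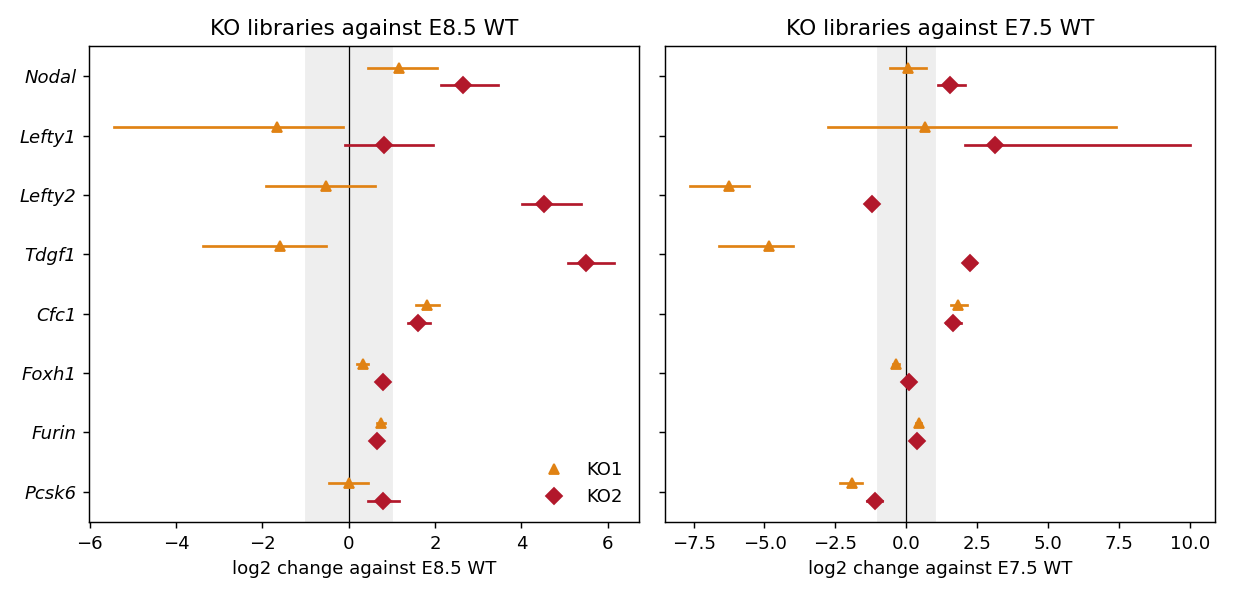
Log2 change of each gene in KO1 (triangles) and KO2 (diamonds) against E8.5 wild type (left) and E7.5 wild type (right), with exact 95% intervals of the reads as bars, which cover counting error only. Points include a prior count of 2 and bars do not. The grey band marks changes of up to 1 in either direction. Cfc1 lies above the band in both KO libraries and both panels, while Tdgf1 and Lefty2 are far apart in KO1 and KO2.

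The threshold calls carry no p-value. In the edgeR test across all genes, which took its spread from KO1 and KO2, 0% of genes and 0 genes of the set were called against either wild-type stage at an adjusted p under 0.05. At an unadjusted p under 0.05 there were 2 of 8 (Cfc1 and Furin) against E8.5 wild type, where 7.31% of all genes passed, and 3 of 8 (Cfc1, Pcsk6 and Furin) against E7.5 wild type, where 24.4% passed. DESeq2 called 0 of the set against E8.5 wild type (0.215% of all genes) and 1 (Cfc1) against E7.5 wild type (5.01% of all genes). With every gene above 0 counts kept, edgeR called Cfc1 against E7.5 wild type (adjusted p of 0.0263) among 728 genes.

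Of the 8 genes, 4 separated the KO libraries from each other. Nodal, Lefty1, Lefty2 and Tdgf1 were higher in KO2 than KO1 by a log2 change above 1 (5.99% of all genes), and none was lower (4.89% of all genes). Beyond counting error, KO1 lay above both wild-type libraries for 2 genes (Cfc1 and Furin), below both for 1 (Tdgf1) and between them for 1 (Foxh1), and was not resolved from at least 1 of them for 4. KO2 lay above both for 5 genes (Nodal, Tdgf1, Cfc1, Foxh1 and Furin) and between them for 2 (Lefty2 and Pcsk6), and was not resolved for Lefty1. These positions were worked out for the set alone, so no share over all genes can be set beside them.

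Some marker lists differed between the libraries in the same way and others did not. The 6 epiblast markers summed to 2205 CPM in E7.5 wild type, 632 in E8.5 wild type, 749 in KO1 and 2973 in KO2, and most of each sum was Dnmt3b (1531, 450, 572 and 2334 CPM). All of them but Tdh were higher in KO2 than KO1 by a log2 change above 1. Tdh ran the other way, with 142 and 95.1 CPM in the wild types and 42.6 and 30.4 in the KO libraries, and was lower in both KO libraries than in both wild types. The 6 node and notochord markers summed to 101, 41.6, 87.8 and 114 CPM. Of these, Foxj1 and Chrd were above the threshold in both KO libraries against E8.5 wild type, while Shh was lower in KO2 (2.30 CPM) than in E8.5 wild type (16.3) and KO1 (19.3). The part of such tissues in the levels of Cfc1 and the other genes was not tested.

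The summed level of 8 visceral endoderm markers was lower in both KO libraries, with 4280 CPM in KO1 and 4082 in KO2. The sum was 6901 in E7.5 wild type and 7185 in E8.5 wild type, and most of each sum was Apob and Cubn. Amn was not lower in KO2 (147 CPM) than in E8.5 wild type (129). Hnf4a differed from E8.5 wild type by log2 changes of only -0.07 in KO1 and -0.03 in KO2. Apoa1 and Rbp4 were below both wild types by the threshold in both KO libraries (0.361% of all genes). DESeq2 called 4 of the 8 against E8.5 (0.215% of all genes) and 5 against E7.5 (5.01% of all genes). Trophoblast giant cell and ectoplacental markers (6 genes) stood out in KO2, where they summed to 753 CPM, against 6.05 in E7.5 wild type, 0.732 in E8.5 wild type and 1.43 in KO1, with Prl3b1 and Tpbpa at 0 in every library. The 3 maternal decidua markers summed to 129 CPM in E7.5 wild type and 130 in KO2, against 7.40 in E8.5 wild type and 14.4 in KO1. Most of the sums in E7.5 wild type and KO2 was Prl8a2 (111 and 118 CPM). Prl3c1 had 11.4 CPM in E7.5 wild type and 2.05 in KO2, and was at 0 in KO1. Pgr lay between 5.21 CPM in E8.5 wild type and 10.8 in KO2. The part of these tissues in the Nodal, Lefty2 and Tdgf1 levels of KO2 was not tested.

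The rest of the pathway was compared through lists of its other components (the plot of the pathway lists). Of 7 receptors and SMADs, 6 were tested and none passed the threshold in both KO libraries in either direction against E8.5 wild type or E7.5 wild type. Smad4, the common partner of the receptor-activated SMADs, had 1698, 2139, 1804 and 2394 reads in E7.5 wild type, E8.5 wild type, KO1 and KO2, and Smad2 had 889, 1239, 870 and 1111. The type I receptor gene Acvr1c had at most 2 reads. Median log2 changes of the list against E8.5 wild type were 0.10 in KO1 and -0.10 in KO2. Activin class ligands were scarce, since Inhba and Mstn were under the minimum and Inhbb had at most 10 reads. Gdf11 had 43, 95, 49 and 58 reads, and none of the 2 tested passed in both KO libraries.

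Of 11 other pathway inhibitors, 1 exceeded E8.5 wild type by a log2 change above 1 in both KO libraries (3.44% of all genes). None was lower by as much (1.79% of all genes). The higher gene was Cer1, a secreted antagonist of NODAL and BMP ligands. Cer1 had 835 reads in E7.5 wild type, 135 in E8.5 wild type, 202 in KO1 and 2021 in KO2. Its log2 change was 1.12 (0.81 to 1.46) in KO1 and 3.89 (3.66 to 4.18) in KO2. Against E7.5 wild type it was -1.54 in KO1 and 1.24 in KO2. The inhibitors with the most reads, Ski and Ppm1a, stayed within 0.20 of both wild-type libraries on the log2 scale in both KO libraries. In KO2 alone, Fst, Pmepa1 and Skil were also above E8.5 wild type by more than 1. Of all genes, 9.41% were above E8.5 wild type by as much in KO2.

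Of 13 mesendoderm response genes, 2 exceeded E8.5 wild type by this threshold in both KO libraries (3.44% of all genes). Wnt3, a ligand of the primitive streak, had 124, 46, 88 and 325 reads (libraries in the same order) and log2 changes of 1.44 and 2.78. Nanog, a pluripotency factor, had 278, 91, 197 and 882 reads and log2 changes of 1.64 and 3.26. The genes of the list with the most reads were T and Eomes, transcription factors of the streak. Eomes had 1333, 64, 77 and 3128 reads, so that KO1 differed from E8.5 wild type by 0.80 and KO2 by 5.58. T had 3864, 934, 829 and 1485 reads and was lower in both KO libraries than in E7.5 wild type, with log2 changes of -1.72 and -1.41. Median log2 changes of the list against E8.5 wild type were 0.36 in KO1 and 2.24 in KO2. Of the 13, 8 were higher in KO2 than KO1 by more than 1 (5.99% of all genes). Against E8.5 wild type, edgeR gave an adjusted p of 0.666 for both Wnt3 and Nanog, and DESeq2 gave 0.421 for Wnt3 and 0.0154 for Nanog.

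None of the 7 other proprotein convertases passed the threshold in both KO libraries against E8.5 wild type. Mbtps1 and Pcsk7, the convertases with the most reads beside Furin, had log2 changes against E8.5 wild type between -0.22 and 0.22.

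**Figure D4:**
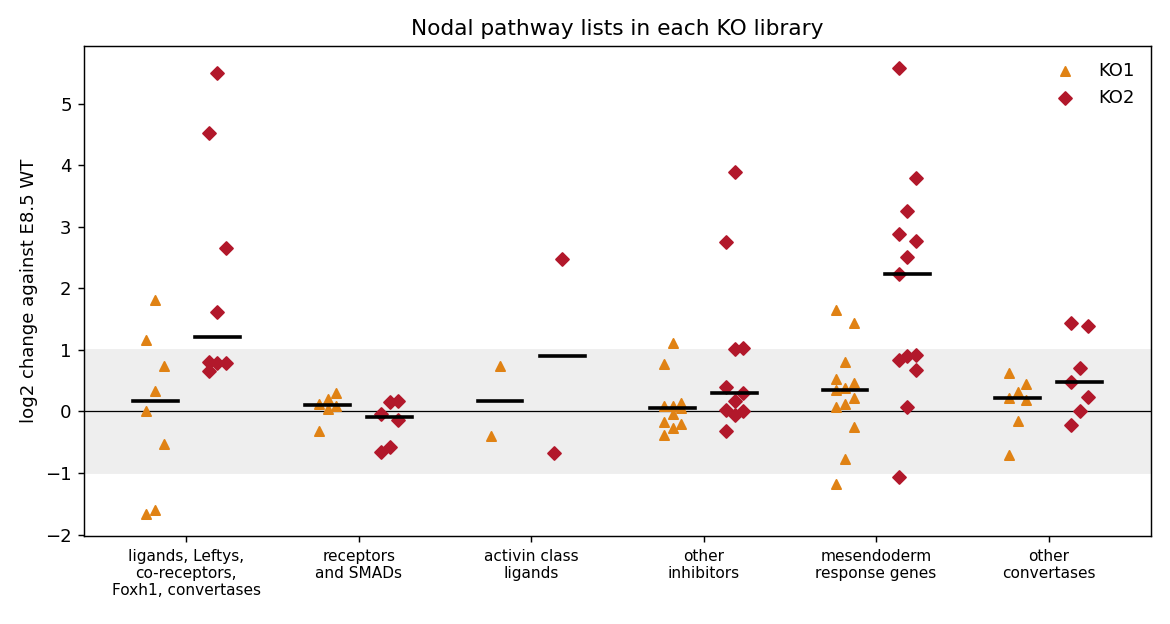
Log2 change against E8.5 wild type of each tested gene in the Nodal pathway lists, in KO1 (triangles) and KO2 (diamonds). Black bars are medians and the grey band marks changes of up to 1. In KO2 the ligand set and the mesendoderm response genes reach above 5, while receptors and SMADs stay within the band in both KO libraries.

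The genes whose pattern over the 4 libraries was nearest that of Nodal were BC021891, Inpp5j, Shroom1, Wnt3 and Eppk1, in this order. Likeness was the distance between log2 CPM values centred on each gene's mean, over 13244 genes with at least 50 reads in all, and ran from 0.09 for BC021891 to 0.30 for Eppk1. In the same library order, BC021891 had 10, 4, 8 and 34 reads and Inpp5j 9, 4, 8 and 35, and the patterns of such low counts are imprecise. Shroom1 had 63, 23, 42 and 159 reads. With 4 libraries, many genes can share a pattern, and no member of the set was among the 5.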

How the data were processed

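Polyadenylated RNA of whole embryos was sequenced from strand-specific libraries, with 1 wild-type library each at E7.5 and E8.5 and 2 Ddx6 KO libraries at E8.5, grouped by their labels. The authors deposited raw counts per gene, made with cutadapt 2.8, HISAT2 2.1.0 on mm10 and featureCounts 2.0.0 over exons, per the authors' methods. The deposited table held 24421 genes, of which 18427 had a count. Total counts were 12095555 and 12562640 in wild type at E7.5 and E8.5, and 8198402 and 12008252 in KO1 and KO2.

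TMM factors came from the whole table (edgeR 4.0.16, R 4.3.3). Genes with at least 10 counts in 1 library were kept (14393). Log2 changes were differences of log2 CPM with a prior count of 2, and the threshold of 1 was that of the study, required here in both KO libraries. Quasi-likelihood tests in edgeR fitted all libraries in 3 groups, so the spread rests on the KO libraries, with 1 residual degree of freedom. P-values were two-sided with Benjamini-Hochberg adjustment over all genes. DESeq2 1.42.0 was an alternative. Nothing in the sources used here says whether the KO pools shared litters. Intervals were exact Clopper-Pearson. The libraries carried no stated molecular identifiers, so reads are not independent molecules. The pipeline was run on simulated data with equal changes in both KO libraries. This checked the code and not the power of the tests on these libraries.

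Positions, transcript lengths (first coding transcript) and 3′ UTRs came from GENCODE for GRCm38, the assembly of mm10. Shared stretches of 50 bases were found by comparing transcripts. Genes named were Ddx6, the 10 genes of the set, of each pathway list those that both KO libraries put past the threshold and the 2 with the most reads, genes with exons overlapping a member, and the 5 nearest to Nodal. For the other convertases, the comparison with E7.5 wild type is not reported here. Marker lists are given by summed level and genes at 0. Acvr1c, Inhba, Mstn, Fst, Pmepa1, Skil, Dnmt3b, Tdh, Foxj1, Chrd, Shh and 6 extraembryonic ectoderm markers fall outside this rule. So do Apoa1, Rbp4, Apob, Cubn, Amn, Hnf4a, Prl8a2 and Pgr. All of these were named after their values were seen. Members and lists were chosen with earlier results of these data known. Alternatives were other scalings, filters, a prior count of 0.5, single KO libraries and a threshold of 2. Figures were drawn with matplotlib 3.10.9.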

Additional observations from a re-analysis of the deposited data

How the results depend on the processing

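No paired analysis was possible because each wild-type stage had 1 library. Under DESeq2 size factors or plain CPM, the counts of the set past the threshold and the direction of each gene did not change. For Furin the mean change from E8.5 wild type moved from 0.70 to 0.76 with plain CPM. With a prior count of 0.5, 2 genes in place of 1 were higher in both KO libraries than in E7.5 wild type, since low counts are shrunk less. With a threshold of 2, no gene was higher than E8.5 wild type, higher than E7.5 wild type or lower than E7.5 wild type in both (0 in each). The KO libraries decided most counts. Taken singly, KO1 or KO2 gave between 2 and 4 genes higher than E8.5 wild type, between 1 and 4 higher than E7.5 wild type, between 0 and 2 lower than E8.5 wild type and between 2 and 3 lower than E7.5 wild type. Of all genes, 4.97% were higher than E8.5 wild type in KO1 and 9.41% in KO2 by a log2 change above 1. For the other counts of single libraries the share of all genes was not worked out. Against E8.5 wild type, Lefty2 ranged from -0.53 without KO2 to 4.52 without KO1 on the log2 scale, and Tdgf1 from -1.60 to 5.49, so that both changed direction without KO2. Lefty1 went from -0.42 to 0.81 without KO1, and Pcsk6 from 0.40 to 0.00 without KO2. No such setting changed the direction of Cfc1, Nodal, Furin or Foxh1. For tests against E7.5 wild type, 1 gene of the set (Cfc1) was called with DESeq2 and 1 (Cfc1, adjusted p of 0.0263) in edgeR with every gene above 0 counts kept. Over all genes tested with the 10-count minimum, edgeR called 0 against either stage, while DESeq2 called 31 against E8.5 wild type and 721 against E7.5 wild type. With every gene above 0 counts kept, edgeR called 8 and 728. With a minimum of 50 counts or DESeq2 size factors it called 0 in both. Counts of Gdf3 and Lefty1 were too low to show moderate differences.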
